A study of Mus musculus with 6 samples.

Results

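RNA-seq data of CD27SP NK cells were examined for *Cd27* and 9 integrin subunit genes, which together hold the surface markers used to stage mouse NK cells. The 10 genes were given as a fixed list by symbol, *Itgam*, *Cd27*, *Itga1*, *Itga2*, *Itga4*, *Itgae*, *Itgal*, *Itgb1*, *Itgb2* and *Itgb7*, out of 25690 gene symbols in the tables. All 10 were among the 15474 genes that passed the filter on low counts. The cells were sorted from the bone marrow (BM) for surface NK1.1 and CD27 and for absence of surface CD11b and CD3, and were described as immature. *Ncr1cre Myc* wt/wt controls were compared with their *Ncr1cre Myc* fl/fl counterparts, whose *Myc* alleles are floxed, and both genotypes carry Cre under control of *Ncr1*, the gene of the NK cell receptor NKp46. Cre removes the floxed *Myc* alleles only in cells that have switched on *Ncr1*, so that deletion in the CD27SP subset is recent. There were 3 libraries per genotype, with the numbers 1, 2 and 4 in each. The study's methods describe its mice in general as matched for age and sex, with ages given in weeks. Nothing states that each library came from a separate animal, so the p-values measure the spread between these libraries, which may be technical. The comparison asks how the transcripts of the NK cell staging markers and of their integrin relatives stand in BM NK cells of mice with *Ncr1cre*-driven deletion of *Myc*.

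Integrins are adhesion receptors made of 1 alpha and 1 beta chain, and the beta chain decides which alpha chains can reach the cell surface. In NK cells, the beta2 chain (*Itgb2*) pairs with alphaL (*Itgal*) into LFA-1, which binds ICAM molecules on target cells, with alphaM (*Itgam*, CD11b) into Mac-1, and with alphaX (*Itgax*, CD11c). The beta1 chain (*Itgb1*) pairs with the collagen-binding alpha1 (*Itga1*, CD49a) and alpha2 (*Itga2*, CD49b, the antigen of the DX5 antibody) and with alpha4 (*Itga4*, CD49d), whose ligands are VCAM-1 and fibronectin. The beta7 chain (*Itgb7*) pairs with alpha4 and with alphaE (*Itgae*, CD103), a receptor for E-cadherin. CD27 is a TNF receptor family member that binds CD70. Mouse NK cells carry CD27 before CD11b, pass through a stage with both, and lose CD27 last.

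The regions before the transcription start are shown for the gene of the negative sort marker and for the pair of alpha chain genes whose levels were lower in fl/fl libraries at an unadjusted p under 0.05 and a mean above 10 CPM. Each sequence holds the 250 bases before the RefSeq start on GRCm38.p6 and is written 5′ to 3′ on the strand of the gene. Capitals mark the motifs searched.
Itgam, chr7:128062390-128062639, + strand: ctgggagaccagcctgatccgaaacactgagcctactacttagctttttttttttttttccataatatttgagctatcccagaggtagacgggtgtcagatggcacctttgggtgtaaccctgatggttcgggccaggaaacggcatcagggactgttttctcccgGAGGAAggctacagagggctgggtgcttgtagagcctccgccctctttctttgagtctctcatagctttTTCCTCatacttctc
Itga2, chr13:114932101-114932350, - strand: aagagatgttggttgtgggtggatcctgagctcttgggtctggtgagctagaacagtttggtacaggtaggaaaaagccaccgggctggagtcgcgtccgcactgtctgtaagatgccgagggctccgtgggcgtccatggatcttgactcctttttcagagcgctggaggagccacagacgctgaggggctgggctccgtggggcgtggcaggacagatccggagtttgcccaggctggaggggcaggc
Itga4, chr2:79255176-79255425, + strand: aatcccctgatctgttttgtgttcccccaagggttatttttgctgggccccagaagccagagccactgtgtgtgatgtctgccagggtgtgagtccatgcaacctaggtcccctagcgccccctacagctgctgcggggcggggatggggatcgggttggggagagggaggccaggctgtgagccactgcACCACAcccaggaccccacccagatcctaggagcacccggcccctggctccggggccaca
Of the 10 genes, 7 had such a sequence (*Itgam*, *Cd27*, *Itga1*, *Itga2*, *Itga4*, *Itgb1* and *Itgb7*). The E-box CACGTG, the letters to which Myc and Max are known to bind, was in 0 of these 7 windows and in 6.02% of all 32851 promoter windows of the same length. The letters TGTGGT or their reverse complement ACCACA, a core known from RUNX factors, were in the *Itga4* window, 60 bases before the start, and in 14.0% of all windows. The letters GAGGAA or TTCCTC, a core known from ETS factors, occurred in the *Itgam* window 84 and 15 bases before the start and in the *Itgb1* window 9 bases before the start, against 23.3% of all windows. Both strands were searched, and the 3 motifs do not overlap in the windows shown. A match describes letters and no binding was measured.

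Estimated counts summed to between 54550907 and 64962491 in 5 libraries, and to 8101219 in wt/wt library 1, which was the shallowest. Values are given below as CPM, counts scaled to the library total and normalized by TMM, where genotypes are compared, and as TPM, which is per transcript length, where genes are compared. *Myc* itself was at 200.5, 183.4 and 164.3 CPM in wt/wt libraries 1, 2 and 4 and at 61.5, 64.6 and 76.5 CPM in the fl/fl libraries, and it fell by 1.44 on the log2 scale (SE 0.15, adjusted p = 0.00189, edgeR's quasi-likelihood test). *Myc* transcripts thus stayed at 37.0% of the wt/wt mean, and the gene total does not show how much of this comes from the deleted part. Across all genes, 333 of 15474 passed the threshold, which was set at a false discovery rate under 0.01 together with a log2 fold change of 0.5 or more in size, 198 higher and 135 lower in fl/fl libraries. NK cell markers were detected in every library, with a summed level of 12 genes of 15488 to 16468 CPM in wt/wt and 18018 to 19108 CPM in fl/fl libraries. Of these 12 genes, 1 passed the threshold, *Fcgr3* (CD16), which fell by 1.00 on the log2 scale (adjusted p = 0.00571 in edgeR). Another view, the unadjusted p under 0.05, had 3 of the 12 higher and 2 lower, beside 12.4% and 10.2% of all tested genes. The 2 with the highest TPM were *Nkg7* (log2 fold change 0.27, adjusted p = 0.282 in edgeR) and *Gzma* (-0.64, adjusted p = 0.0564). T cell markers summed to 263 to 532 CPM in wt/wt and 299 to 383 CPM in fl/fl libraries, with 0 of 8 tested genes past the threshold in edgeR, DESeq2 or limma-trend. At an unadjusted p under 0.05, 2 were higher and 1 was lower, beside 12.4% and 10.2% of all tested genes. The summed levels of markers of other BM cells were compared in the same way. The summed level of 12 basophil and mast cell markers was 25.9 to 29.5 CPM in wt/wt and 135 to 353 CPM in fl/fl libraries, with 8 of the 12 past the threshold. That of 12 neutrophil markers was 85.6 to 140.3 against 541 to 898 CPM (5 past the threshold), and that of 8 erythroid markers was 45.9 to 282 against 563 to 1173 CPM (3 past the threshold). The summed level of 10 monocyte and macrophage markers was 1451 to 1748 against 1751 to 2099 CPM, most of it *Ccr2*, which NK cells express too. Without *Ccr2*, a sum added after the values were seen, the other 9 were at 19.8 to 34.2 against 74.1 to 81.5 CPM. Dendritic cell markers (8 genes) summed to 41.3 to 67.4 against 73.5 to 79.7 CPM, B cell markers (8 genes) to 4.55 to 8.64 against 11.5 to 16.3 CPM, and platelet and megakaryocyte markers (7 genes) to 8.31 to 13.5 against 17.1 to 56.4 CPM. These 4 lists had 3, 1, 0 and 0 genes past the threshold, all higher, while the most abundant dendritic cell markers did not pass (*Cox6a2*, log2 fold change -0.41, and *Bst2*, 0.07), and 1 monocyte and 1 B cell marker were at 0 in all wt/wt libraries. In bulk RNA, fewer cells of a type and less RNA per cell cannot be told apart, and the part of these other cells in the values below was not tested.

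None of the 10 staging and integrin genes passed the threshold in edgeR, where 2.15% of all tested genes did (1.28% higher and 0.872% lower in fl/fl libraries). At an unadjusted p under 0.05, 4 of the 10 differed, *Itgal* higher and *Itga2*, *Itga4* and *Itgae* lower in fl/fl libraries, beside 22.5% of all tested genes (12.4% higher and 10.2% lower). DESeq2 placed 2 of the 10 past the same threshold, *Itga2* and *Itgal*, beside 7.71% of all tested genes, and limma-trend placed 0 there, beside 1.71%. The wt/wt and fl/fl values did not overlap for *Itgal*, which was higher, and for *Itgae*, which was lower. Over all tested genes the same held for 16.2% and 15.1%. The median log2 fold change of the 10 genes was 0.08, and that of all tested genes was 0.01.

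**Figure D1:**
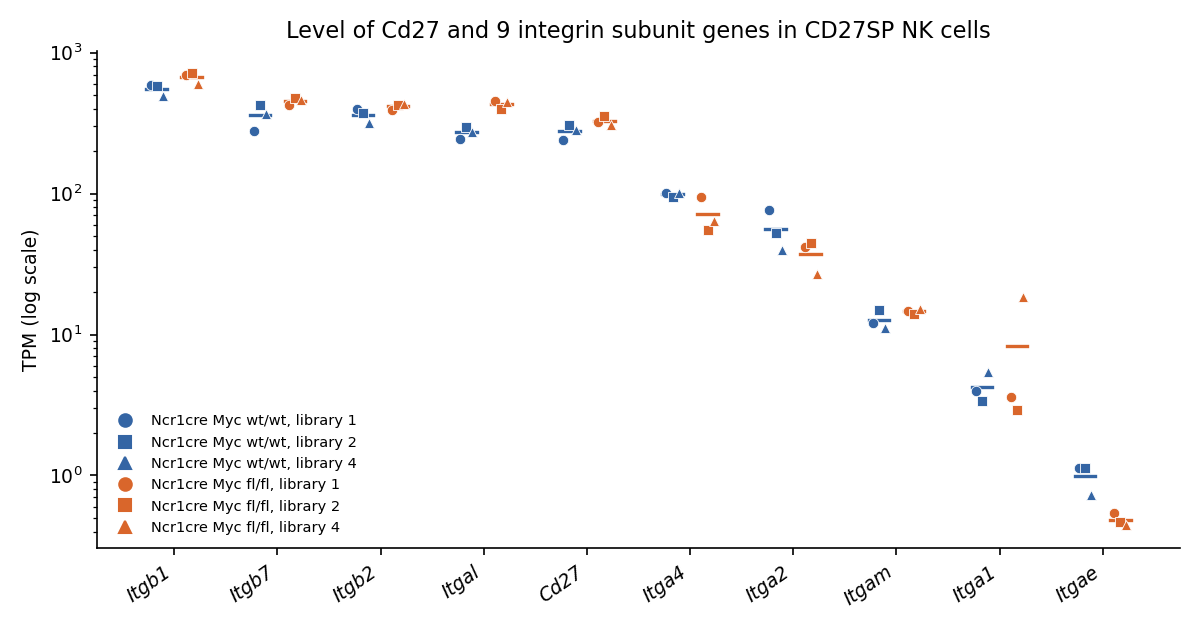
TPM (log scale) of *Cd27* and the 9 integrin subunit genes in each library, blue for wt/wt and orange for fl/fl, with the library number as the symbol shape and the genotype mean as a bar. *Itgb1* was the highest gene in every library, *Itgae* the lowest, and *Itga1* stood apart in fl/fl library 4 at 18.3 TPM.

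The 10 genes spanned a wide range of TPM. *Itgb1* was the highest, at 554 ± 53.4 TPM in wt/wt and 669 ± 63.8 TPM in fl/fl libraries (SD, n = 3). *Itgb7* and *Itgb2* followed at 359 ± 75.7 and 362 ± 39.5 TPM in wt/wt libraries, and their ranges overlapped in both genotypes. *Itgal* and *Cd27* came next and overlapped in wt/wt libraries (272 ± 26.6 and 277 ± 33.3 TPM), whereas in fl/fl libraries *Itgal* (432 ± 31.3 TPM) lay above *Cd27* (328 ± 25.5 TPM) in all 3 and overlapped with *Itgb2* (418 ± 24.2 TPM). *Itga4*, *Itga2* and *Itgam* were separate steps below these in both genotypes, at 99.0 ± 4.34, 56.1 ± 18.3 and 12.7 ± 1.90 TPM in wt/wt libraries. *Itga1* (4.24 ± 1.02 TPM in wt/wt libraries) was below *Itgam* except in fl/fl library 4, and *Itgae* was lowest at 0.994 ± 0.227 and 0.483 ± 0.0502 TPM. The beta chains therefore stood above nearly all of their alpha partners, with *Itgal* in fl/fl libraries as the gene that reached the level of its beta chain.

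The sort markers came first. *Cd27* (chr6:125232622-125237010, minus strand) was at 225, 252 and 235 CPM in wt/wt libraries 1, 2 and 4 and at 238, 278 and 234 CPM in the fl/fl libraries. The genotypes overlapped, with a log2 fold change of 0.07 (SE 0.13, 95% interval -0.22 to 0.36, adjusted p = 0.814 in edgeR). *Itgam* (chr7:128062640-128118491, plus strand) was at 44.6, 45.6 and 34.6 CPM in wt/wt and at 41.7, 42.3 and 46.8 CPM in fl/fl libraries. Wt/wt library 4 was the lowest of the 6, and the log2 fold change was 0.08 (SE 0.16, 95% interval -0.28 to 0.44, adjusted p = 0.839). *Cd27* TPM was 19.8, 20.7 and 25.5 times *Itgam* TPM in wt/wt libraries and 21.9, 25.2 and 20.1 times in fl/fl libraries. In all 6 libraries the transcript of the positive marker was thus far above that of the negative one, and *Itgam* transcripts were above 0 in cells sorted as CD11b-. Since CD27 and CD11b were the gate, a genotype difference in these 2 transcripts could only appear within the sorted window. *Itgam* shares 3450 exon bases with *Gm49368*, a predicted gene on the same strand whose level was 2.38 to 5.99 CPM, so some reads may be divided between them.

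By annotated transcript, *Cd27* counts fell mainly on the 6-exon protein-coding transcript, which held 87.5%, 84.3% and 82.7% of them in wt/wt and 80.3%, 80.9% and 80.2% in fl/fl libraries. A 2-exon retained-intron transcript held 7.8%, 12.6% and 14.7% in wt/wt and 16.6%, 15.8% and 15.9% in fl/fl libraries. The shallow wt/wt library 1 had the lowest share of the latter, and the fl/fl libraries lay close together. No test was made on these shares. *Itgam* counts were split between a pair of 30-exon protein-coding transcripts, with 46.3% and 46.0% on the longer one in wt/wt libraries 2 and 4, 38.1% to 47.0% in fl/fl libraries, and 16.9% in wt/wt library 1.

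The genes whose pattern over the 6 libraries was most like that of *Cd27* were *Ganc*, *Dhps* and *Vac14*, with a Pearson correlation of log2 CPM of 0.991, 0.979 and 0.970 among 8789 genes with a mean of at least 10 CPM. For *Itgam* they were *Eepd1*, *Sec61a1* and *Capn7*, at 0.996, 0.991 and 0.970. With 6 points that share their normalization these are descriptions, taken as the highest of 8789.

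**Figure D2:**
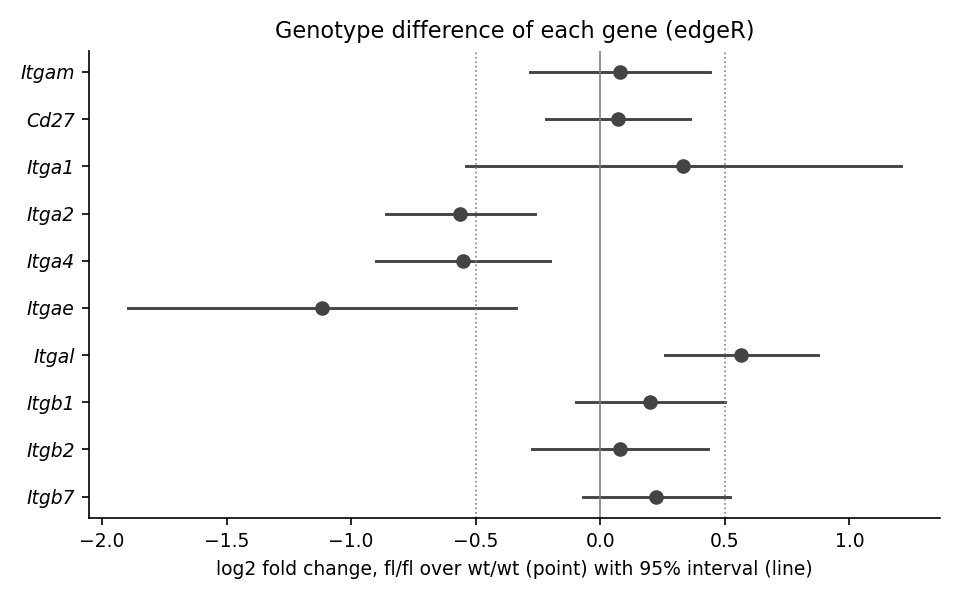
Log2 fold change of fl/fl over wt/wt libraries for each gene (point) with its 95% interval (line) from edgeR, the dotted lines marking -0.5 and 0.5. The intervals of *Itga2*, *Itga4*, *Itgae* and *Itgal* lie to one side of 0, and that of *Itga1* is the widest, from -0.54 to 1.21.

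Of the 5 alpha chain genes *Itga1*, *Itga2*, *Itga4*, *Itgae* and *Itgal*, *Itgal* was the 1 gene higher in fl/fl libraries at an unadjusted p under 0.05. *Itgal* (chr7:127296260-127335138, plus strand) encodes the alpha chain of LFA-1, which NK cells use to hold target cells. It was at 938.8, 988.2 and 922.1 CPM in wt/wt libraries 1, 2 and 4 and at 1477.5, 1291.1 and 1456.5 CPM in the fl/fl libraries. Every fl/fl library lay above every wt/wt library, at a ratio of means of 1.48. The log2 fold change was 0.57 (SE 0.14, 95% interval 0.26 to 0.87) with adjusted p = 0.0361 in edgeR, which missed the 0.01 limit, and with adjusted p = 0.00142 in DESeq2. The counts were spread over 3 protein-coding transcripts in every library, with means of 41.1%, 36.2% and 22.5% in wt/wt and 42.6%, 36.7% and 20.5% in fl/fl libraries. The shares of each transcript overlapped between the genotypes, while the level of *Itgal* did not.

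*Itga2* (chr13:114833081-114932100, minus strand), the CD49b chain that marks NK cells in mice, was at 143, 109 and 93.4 CPM in wt/wt libraries 1, 2 and 4 and at 103, 66.3 and 66.7 CPM in the fl/fl libraries. Fl/fl library 1 lay above wt/wt library 4, so the genotypes overlapped by this 1 library. The log2 fold change was -0.56 (SE 0.13, 95% interval -0.86 to -0.26), with an adjusted p of 0.0342 in edgeR and of 0.00254 in DESeq2. CD49b is also known from basophils, whose markers were higher in fl/fl libraries, and their part in the *Itga2* value was not tested. *Itga4* (chr2:79255426-79333123, plus strand), the alpha chain of the VCAM-1 receptor, was at 298, 253 and 294 CPM in wt/wt and at 261, 165 and 164 CPM in fl/fl libraries. Fl/fl libraries 2 and 4 were well below all wt/wt libraries, and fl/fl library 1 was within the wt/wt range. The log2 fold change was -0.55 (SE 0.16, 95% interval -0.90 to -0.20, adjusted p = 0.0616 in edgeR). *Itga4* shares 1124 exon bases with *Cerkl* on the other strand (5.28 to 9.87 CPM), and libraries of this kit do not mark the strand. Fl/fl library 1 held the highest fl/fl value of both *Itga2* and *Itga4*.

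*Itgae* (chr11:73090583-73147446, plus strand) was the lowest of the 10, at 3.38, 2.995 and 2.03 CPM in wt/wt and at 1.38, 1.24 and 1.16 CPM in fl/fl libraries. These values stand for 26, 169 and 133 counts in wt/wt and 81, 68 and 69 counts in fl/fl libraries. All fl/fl libraries were below all wt/wt libraries, with a log2 fold change of -1.12 (SE 0.35, 95% interval -1.896 to -0.34, adjusted p = 0.0851 in edgeR). The share of *Itgae* counts on its protein-coding transcript, the rest being on a retained-intron one, was 79.0%, 67.7% and 54.0% in wt/wt and 46.2%, 51.7% and 73.3% in fl/fl libraries, so that the genotypes overlapped in this share. *Haspin*, a mitotic kinase gene that lies within *Itgae* on the other strand with 0 shared exon bases, was at 76.7, 41.7 and 38.6 CPM in wt/wt and at 30.2, 28.2 and 29.1 CPM in fl/fl libraries. It was thus lower in the same libraries as *Itgae*, and the part of its reads in the *Itgae* value was not tested.

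*Itga1* (chr13:114953096-115101964, minus strand), the CD49a chain known from ILC1s and tissue-resident NK cells, lies 20995 bases from *Itga2* on the same strand. It was at 16.4, 13.5 and 19.0 CPM in wt/wt libraries 1, 2 and 4 and at 12.9, 9.88 and 65.6 CPM in the fl/fl libraries. Fl/fl libraries 1 and 2 were below all wt/wt libraries, and fl/fl library 4 was 4.03 times the wt/wt mean. The log2 fold change was 0.33 (SE 0.39, 95% interval -0.54 to 1.21, adjusted p = 0.689 in edgeR), and it was -0.51 (adjusted p = 0.236) without fl/fl library 4 and without the replicate block. The same library held the highest values of *Gzmb* and *Prf1*, which encode granzyme B and perforin, and of *Klrg1*, a marker of mature NK cells. These 3 genes were chosen for display after their values were seen, and other markers of mature NK cells went the other way in that library. *S1pr5* (9.68 CPM), *Zeb2* (42.9 CPM) and *Cma1* (3.38 CPM) had their lowest value of the 6 libraries there. *Gzmb* was at 212, 186 and 166 CPM in wt/wt and at 472, 358 and 1488 CPM in fl/fl libraries. *Klrg1* was at 23.5, 23.3 and 18.6 CPM in wt/wt and at 7.93, 7.85 and 37.1 CPM in fl/fl libraries, so that it shared with *Itga1* the order of the fl/fl libraries, 1 and 2 below and 4 above all wt/wt libraries. *Prf1* was at 616, 689 and 498 CPM in wt/wt and at 846, 891 and 1988 CPM in fl/fl libraries. Whether these genes moved in the same cells as *Itga1* was not tested. *Itga1* shares 685 exon bases with *Gm49395*, which was at 0.749 to 4.16 CPM.

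**Figure D3:**
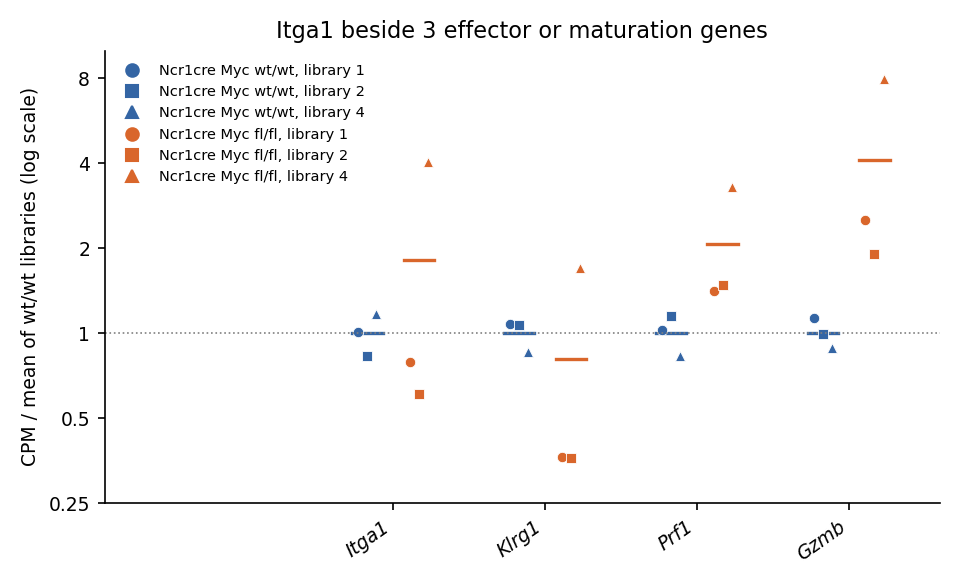
CPM of *Itga1*, *Klrg1*, *Prf1* and *Gzmb* in each library divided by the wt/wt mean of the gene (log scale), blue for wt/wt and orange for fl/fl, with bars at the genotype means. Fl/fl library 4 (triangle) is the highest library for all 4 genes, at 4.03, 1.70, 3.31 and 7.92 times the wt/wt mean, whereas *S1pr5*, *Zeb2* and *Cma1*, which are not plotted, were lowest there.

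None of the 3 beta chain genes reached an unadjusted p under 0.05. *Itgb1* (chr8:128685654-128733200, plus strand) was at 1661, 1540 and 1405 CPM in wt/wt and at 1829, 1913 and 1557 CPM in fl/fl libraries, with a log2 fold change of 0.20 (SE 0.13, 95% interval -0.10 to 0.50, adjusted p = 0.431 in edgeR). *Itgb2* (chr10:77530252-77565708, plus strand) was at 838, 686 and 607 CPM in wt/wt and at 678, 787 and 772 CPM in fl/fl libraries, with a log2 fold change of 0.08 (SE 0.16, 95% interval -0.27 to 0.43, adjusted p = 0.832). *Itgb7* (chr15:102215995-102231944, minus strand) was at 524, 694 and 610 CPM in wt/wt and at 646, 758 and 724 CPM in fl/fl libraries, with a log2 fold change of 0.23 (SE 0.13, 95% interval -0.07 to 0.52, adjusted p = 0.357). The genotypes overlapped for all 3, and the upper bounds of their intervals lay between 0.43 and 0.52 on the log2 scale. A single protein-coding transcript held 99.8% to 99.9% of the *Itgb7* counts. For *Itgb1* and *Itgb2* the main protein-coding transcript held 87.1% to 92.7% of the counts outside wt/wt library 1, where it held 75.0% and 82.0%, the remainder there falling mostly on a transcript marked for nonsense-mediated decay.

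Since an alpha chain needs its beta chain, the TPM of partners was set side by side, as transcript ratios with no statement on surface protein and no test. *Itgal* TPM was 0.621, 0.801 and 0.852 of *Itgb2* TPM in wt/wt libraries 1, 2 and 4 and was 1.16, 0.924 and 1.03 of it in the fl/fl libraries. The ratio was thus below 1 in all wt/wt libraries and near or above 1 in fl/fl libraries. *Itgam* TPM was 0.0351 of *Itgb2* TPM on average in wt/wt (range 0.0307 to 0.0397) and 0.0352 in fl/fl libraries (range 0.0329 to 0.0379). On the beta1 side, *Itga2* TPM was 0.0813 to 0.129 of *Itgb1* TPM in wt/wt and 0.0449 to 0.0620 in fl/fl libraries, and *Itga4* TPM was 0.163 to 0.205 against 0.0767 to 0.137. Both ratios were lower in every fl/fl than in every wt/wt library, whereas the CPM of *Itga2* and of *Itga4* overlapped. How many ratios of other gene pairs would separate in this way was not computed. For alpha4beta7, *Itga4* TPM was 0.219 to 0.365 of *Itgb7* TPM in wt/wt and 0.116 to 0.224 in fl/fl libraries, which overlapped, and *Itgae* TPM was at most 0.00405 of *Itgb7* TPM.

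**Figure D4:**
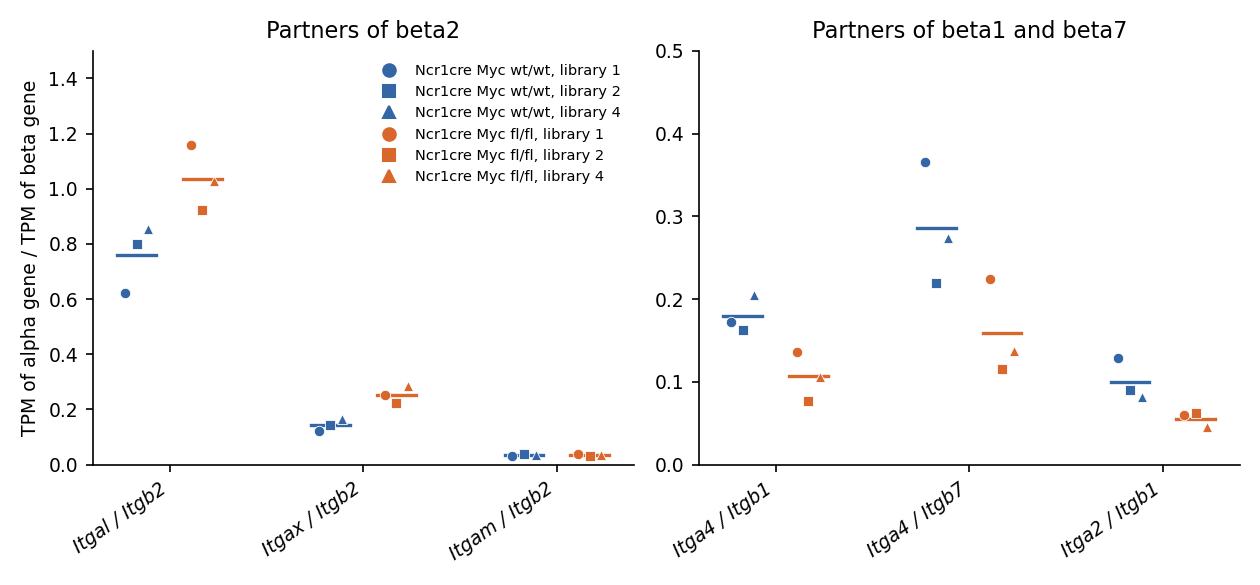
TPM of an alpha chain gene divided by TPM of its beta chain gene in each library, blue for wt/wt and orange for fl/fl, with bars at the genotype means; the vertical scales of the panels differ. *Itgal* over *Itgb2* averages 0.758 in wt/wt and 1.04 in fl/fl libraries, and *Itga4* over *Itgb1* averages 0.180 and 0.107.

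Of 18 further integrin subunit genes, 12 were tested and 2 rose past the threshold in fl/fl libraries, *Itgax* and *Itga2b*, while none fell, beside 1.28% of all tested genes that rose and 0.872% that fell. The median log2 fold change of the 12 was 0.43. *Itgax*, the third beta2 partner, was at 145, 140 and 148 CPM in wt/wt libraries 1, 2 and 4 and at 254.5, 257 and 324 CPM in the fl/fl libraries. All fl/fl libraries lay above all wt/wt libraries, with a log2 fold change of 0.94 (SE 0.14, adjusted p = 0.00536 in edgeR). The adjusted p was 0.0161, 0.0141 and 0.0213 with replicate 1, 2 or 4 left out of both genotypes, at log2 fold changes of 1.00, 0.98 and 0.82. Summed markers of dendritic cells, monocytes and neutrophils were also higher in fl/fl libraries, and the part of such cells in the *Itgax* value was not tested. *Itgal*, *Itgam*, *Itgax* and *Itgad* lie on the plus strand of chromosome 7 in this order, with *Itgax* 11055 bases after *Itgam* and *Itgad* 3718 bases after *Itgax*. *Itgad* was at 19.2, 17.9 and 17.5 CPM in wt/wt and at 18.3, 18.7 and 30.9 CPM in fl/fl libraries (log2 fold change 0.28, adjusted p = 0.504). The neighbours in this cluster thus differed in their values, with *Itgax* past the threshold and *Itgam* and *Itgad* not, although the differences between the genes themselves were not tested. The TPM of the 4 alpha genes together was 0.815, 1.01 and 1.09 of *Itgb2* TPM in wt/wt and 1.48, 1.20 and 1.38 in fl/fl libraries.

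*Itga2b*, the alpha chain of the platelet fibrinogen receptor (CD41), was at 0.520, 2.48 and 2.49 CPM in wt/wt and at 13.6, 16.5 and 6.73 CPM in fl/fl libraries, with a log2 fold change of 2.60 (SE 0.45, adjusted p = 0.00989 in edgeR). Its adjusted p was 0.0234, 0.0369 and 0.000677 with replicate 1, 2 or 4 left out of both genotypes. It passed in DESeq2 (adjusted p = 2.0e-07) but missed the limit in limma-trend (adjusted p = 0.0129). It also missed it in edgeR with effective-length offsets (0.0155) and with library size only (0.02775). With at least 10 counts asked of every library *Itga2b* was not tested, since wt/wt library 1 held 4 counts. Fl/fl library 4 was the lowest of the fl/fl libraries. The platelet lineage genes *Pf4* (1.56, 2.41 and 4.41 CPM in wt/wt and 19.7, 20.5 and 6.98 CPM in fl/fl libraries) and *Ppbp* (1.30, 1.44 and 2.82 against 9.09, 19.9 and 2.41 CPM) had their lowest fl/fl value in the same library, and so had *Mcpt8*, a basophil protease gene, at 23.8 CPM against 53.1 and 67.0 CPM. The summed neutrophil markers went the other way, at 562, 541 and 898 CPM in fl/fl libraries 1, 2 and 4, and *Mpo* and *Elane* were highest in library 4. The part of these other cells in the *Itga2b* value was not tested. *Itgb3*, the beta partner of *Itga2b* and *Itgav*, was at 17.3, 21.3 and 17.6 CPM in wt/wt and at 45.0, 14.7 and 39.2 CPM in fl/fl libraries (log2 fold change 0.66, adjusted p = 0.273) and thus overlapped. Without replicate 2, whose fl/fl library held the lowest of the 6 values, its log2 fold change was 1.27 and it passed the threshold (adjusted p = 0.00933). *Itgav* (log2 fold change 0.19, adjusted p = 0.512) and *Itga6* (0.17, adjusted p = 0.598) were the other subunits with a high TPM and did not pass the test. The 6 subunits that were not tested, *Itga8*, *Itga10*, *Itga11*, *Itgb6*, *Itgb8* and *Itgb2l*, were at most 0.544 CPM in any library.

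**Figure D5:**
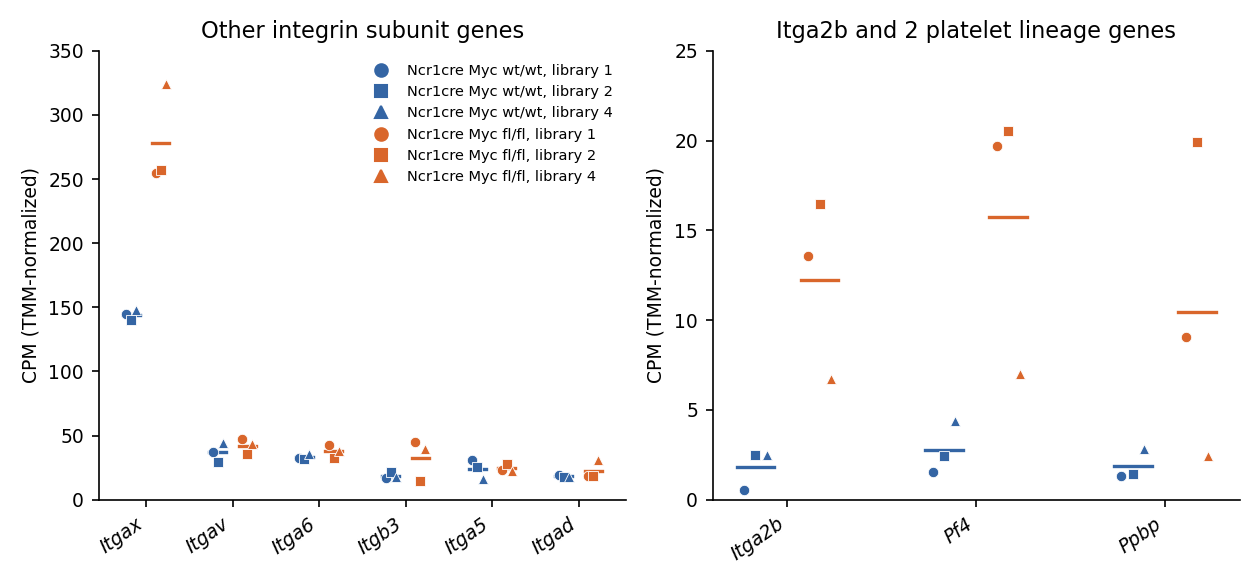
CPM of further integrin subunit genes (left) and of *Itga2b* beside *Pf4* and *Ppbp* (right) in each library, blue for wt/wt and orange for fl/fl, with bars at the genotype means. *Itgax* lies at 140 to 148 CPM in wt/wt and 254.5 to 324 CPM in fl/fl libraries, and fl/fl library 4 has the lowest fl/fl value of all 3 genes on the right.

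Of 34 genes of integrin activation and adhesion, 32 were tested and 0 passed the threshold in edgeR. At an unadjusted p under 0.05, 8 were higher and 1 was lower in fl/fl libraries, DESeq2 placed 1 past the threshold and limma-trend 0, and the median log2 fold change was 0.22. Over all tested genes, 12.4% were higher and 10.2% lower at that unadjusted p, and 7.71% passed the threshold in DESeq2. The gene past the threshold in DESeq2 was *Rasgrp1*, an exchange factor of Ras, which was at 277, 272 and 270 CPM in wt/wt and at 406, 371 and 413 CPM in fl/fl libraries (log2 fold change 0.54, adjusted p = 0.036 in edgeR). It lay above all wt/wt libraries in each fl/fl library. *Apbb1ip*, which encodes the Rap1 effector RIAM, was the 1 lower gene, at 92.5, 85.7 and 93.1 CPM in wt/wt and at 70.6, 75.2 and 62.4 CPM in fl/fl libraries (log2 fold change -0.39, adjusted p = 0.132). The 3 of the list with the highest TPM were *Zyx* (log2 fold change 0.22, adjusted p = 0.406), *Rap1b* (0.00, adjusted p = 0.994) and *Skap1* (-0.19, adjusted p = 0.458). *Tln1*, the gene of talin, which binds the beta chain tail, was at 385, 379 and 356 CPM in wt/wt and at 704, 366 and 544 CPM in fl/fl libraries (adjusted p = 0.147), and fl/fl library 2 was within the wt/wt range. *Rasgrp1*, *Apbb1ip* and *Tln1* were chosen after their values were seen.

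The ligands of these integrins, 11 genes of which 10 were tested, had 0 past the threshold in edgeR, 3 higher and 1 lower at an unadjusted p under 0.05, 2 in DESeq2 and 0 in limma-trend, beside 22.5% of all tested genes at that unadjusted p and 7.71% in DESeq2. *Icam2*, an LFA-1 ligand, was at 92.4, 78.4 and 76.4 CPM in wt/wt and at 58.4, 69.0 and 44.3 CPM in fl/fl libraries (log2 fold change -0.54, SE 0.16, adjusted p = 0.0651 in edgeR). All fl/fl libraries were below all wt/wt libraries, opposite to *Itgal*. *Icam1* had a log2 fold change of 0.25 (adjusted p = 0.347), and *Thy1* of -0.27 (adjusted p = 0.322). The pair past the threshold in DESeq2 was *Cdh1*, the gene of E-cadherin and so of the alphaEbeta7 ligand, and *Vcam1*, which encodes the alpha4beta1 ligand. *Cdh1* was at 0.650, 0.656 and 1.08 CPM in wt/wt and at 4.48, 4.22 and 2.93 CPM in fl/fl libraries, and *Vcam1* was at 0.514 to 0.534 against 1.17 to 3.07 CPM. Both are low, and the part of the other cell types named above in these values was not tested.

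In the list of 10 genes on CD27 signalling, 9 were tested and 1 rose past the threshold in edgeR, beside 1.28% of all tested genes, and 3 passed in DESeq2, beside 7.71%. The median log2 fold change was 0.26. *Nfkb2*, which encodes the p100 precursor of the noncanonical NF-kB pathway, was at 34.0, 59.0 and 46.8 CPM in wt/wt libraries 1, 2 and 4 and at 87.5, 87.8 and 95.1 CPM in the fl/fl libraries. Its log2 fold change was 0.98 (SE 0.17, adjusted p = 0.00953 in edgeR), and the adjusted p was 0.0126 without the replicate block and 0.0421, 0.00707 and 0.0273 with replicate 1, 2 or 4 left out. *Relb*, the partner of its product, and *Map3k14*, which encodes the kinase NIK, were past the threshold with it in DESeq2 and had adjusted p-values of 0.0157 and 0.0379 in edgeR, while *Relb* passed (0.0091) without the replicate block. *Relb* was at 27.8, 33.3 and 32.4 CPM in wt/wt and at 49.7, 55.6 and 50.4 CPM in fl/fl libraries. *Map3k14* was at 14.7, 20.3 and 21.3 CPM in wt/wt and at 26.8, 29.7 and 33.7 CPM in fl/fl libraries. In this list 5 genes, these 3 with *Traf2* and *Birc2*, were above every wt/wt library in each fl/fl library, beside 16.2% of all tested genes, and *Cd27* itself overlapped. The adaptor gene *Traf2* had a log2 fold change of 0.31 (adjusted p = 0.212), *Birc2* of 0.26 (adjusted p = 0.308) and *Siva1*, whose product binds the CD27 tail, of -0.44 (adjusted p = 0.11). *Cd70*, the ligand gene, was not tested, and its level was at most 0.230 CPM.

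For the staging of the cells beyond CD27 and CD11b, 10 markers of mature NK cells gave 1 gene past the threshold that rose and 2 that fell in fl/fl libraries, beside 1.28% and 0.872% of all tested genes. *Ly6c2* rose by a log2 fold change of 0.83 (adjusted p = 0.00756 in edgeR), and *S1pr5*, which encodes an egress receptor of mature NK cells, and *Cma1* fell by 1.18 (adjusted p = 0.0054) and 1.84 (adjusted p = 0.00253) on the log2 scale. The list therefore had no single direction, and its summed level of 549 to 632 CPM in wt/wt and 879 to 2060 CPM in fl/fl libraries had its highest value in fl/fl library 4, where *Gzmb* was at 1488 CPM. Of 12 markers of immature NK cells and ILC1s, 1 rose past the threshold, *Kit* (beside 1.28% of all tested genes), at 84.3, 63.6 and 83.4 CPM in wt/wt and 241, 188 and 134 CPM in fl/fl libraries (log2 fold change 1.26, adjusted p = 0.00559). *Kit* is also a mast cell and progenitor gene. *S1pr5*, *Cma1* and *Kit* were named for their calls after their values were seen.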

How the data were processed

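RNA from sorted CD27SP NK cells was made into polyA-selected libraries with a SMART-Seq v4 kit and sequenced single end by the authors, who quantified transcripts. The deposited tables hold, per mouse transcript, an estimated count, which is not normalized, and a TPM value. Salmon and GRCh38 are named in the submitters' processing notes, whereas the columns are those of kallisto and the identifiers are mouse. Summed counts exceed the read depth stated in the labels in 5 of the 6 libraries, and why is not given. Which correction was applied to the effective lengths is not given in the sources used here.

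Sums of the estimated counts were taken per gene symbol with the GENCODE M21 annotation (GRCm38), with 100239 of 100583 transcripts matched and 0.129% to 0.169% of counts unmatched, and rounded to whole numbers. Genes were filtered with filterByExpr, normalized by TMM and tested with edgeR 4.0.16 in R 4.3.3 (quasi-likelihood, replicate number as a block, since the study calls its comparison paired). P-values were adjusted by Benjamini-Hochberg over all 15474 genes. Intervals are 95% and were derived from the same fit. Since edgeR's test gives no SE, it was taken as the absolute log2 fold change over the square root of the test's F statistic. The intervals use a t distribution with the degrees of freedom of the test and are approximate. TPM was summed by symbol. Alternatives were the fit without the block, each replicate and each library left out, DESeq2 1.42.0, limma-trend 3.58.1, the largest adjusted p of all 3 tools, effective-length offsets, other filters, no TMM, and an adjusted p limit of 0.05 without a fold limit. Fits were also run on counts simulated with planted changes, without a replicate effect or other cell types. That run does not bear on the pairing or on other cells in the samples.

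The genes and lists were chosen with earlier results of these data known. Named were the 10 genes, *Myc*, the genes past the threshold and the 3 with the highest TPM in each integrin or CD27 list, the 2 with the highest TPM in each marker list (*Nkg7*, *Gzma*; *Ly6c2*, *Gzmb*; *Ctla2a*, *Ltb*; *Prss34*, *Mcpt8*; *Mpo*, *Elane*; *Ccr2*, *Lyz2*; *Cox6a2*, *Bst2*; *Cd3g*, *Cd3d*; *Cd79b*, *Cd79a*; *Pf4*, *Ppbp*; *Hba-a2*, *Hbb-bs*), and the 3 genes most like *Itgam* and *Cd27*. *Fcgr3*, *Itgb3*, *Itgad*, *Relb*, *Map3k14*, *Cdh1* and *Vcam1* were named outside this rule, with their values known. Libraries of 1 genotype differed by more than counting error. Counts of one symbol can be split with overlapping genes. Some items are not reported here.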

Additional observations from a re-analysis of the deposited data

How the results depend on the processing

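The replicate block was kept because the study calls its comparison paired. Same-numbered libraries deviated from their genotype means with correlations of -0.01, -0.02 and 0.05 over 15474 genes, all under 0.1, so the numbers themselves were not shown to pair libraries. Without the block 387 genes passed the threshold against 333 with it (203 higher and 184 lower against 198 and 135), 0 of the 10 staging and integrin genes did so in either fit, *Cdh1* passed among the integrin ligands (1 gene), and in CD27 signalling *Nfkb2* no longer passed while *Relb* did (log2 fold change 0.73, adjusted p = 0.0091).

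Over all alternatives, the log2 fold changes of *Itga2*, *Itga4*, *Itgae*, *Itgal*, *Itgb1* and *Itgb7* kept their sign, with ranges of -0.79 to -0.38, -0.78 to -0.39, -1.33 to -1.01, 0.50 to 0.67, 0.14 to 0.30 and 0.11 to 0.33. Their adjusted p-values ranged from 0.00254 to 0.321 for *Itga2*, 0.0132 to 0.301 for *Itga4*, 0.0414 to 0.315 for *Itgae* and 0.00142 to 0.214 for *Itgal*. DESeq2 placed *Itga2* (-0.56) and *Itgal* (0.56) past the threshold, and the looser limit, an adjusted p of 0.05 and no fold limit, took in the same 2 genes (-0.56 and 0.57). Leaving out replicates or libraries in turn reversed the sign of *Itgam* (-0.12 to 0.19), *Cd27* (-0.007 to 0.13), *Itga1* (-0.51 to 1.27, lowest without fl/fl library 4 and highest without fl/fl library 2) and *Itgb2* (-0.0727 to 0.27), none of which passed in any alternative. It moved *Myc* between -1.62 and -1.30, the latter without replicate 1, where its adjusted p of 0.0105 missed the limit. In the same way *Zyx* ranged from -0.0204 to 0.39, *Rap1b* from -0.0874 to 0.11, *Ctla2a* from -0.12 to 0.13, *Ltb* from -0.0415 to 0.38, *Bst2* from -0.25 to 0.36 and *Cd3g* from -0.32 to 0.30. *Rap1b* was at -0.0114 with effective-length offsets, and *Ctla2a* at 0.00892 without the filter, 0.0214 with at least 10 counts in every library and 0.00948 with library size only. The causes were not tested.

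The count over all genes was 1193 in DESeq2, 902 without the filter, 185 with effective-length offsets, 74 with library size only and 1212 at the looser limit of 0.05 with no fold limit, and 25 to 276 with replicates or libraries left out, lowest without fl/fl library 2. Among the further integrin subunits it was 1 in limma-trend, with the largest p of the 3 tools, with effective-length offsets and with at least 10 counts in every library. That gene was *Itgax* each time. For the same subunits it was 0 with library size only, and 0 to 2 with replicates or libraries left out. For adhesion machinery it was 1 in DESeq2 and at the limit of 0.05. For the ligands it was 2 in DESeq2, 2 without the filter, 3 at the limit of 0.05 and 0 to 1 with replicates or libraries left out. For CD27 signalling it was 3 in DESeq2, 2 without the filter, 3 at the limit of 0.05, 0 to 1 with replicates or libraries left out, and 0 in limma-trend, with the largest p of the 3 tools, with effective-length offsets and with library size only. With 3 libraries per genotype and 8101219 counts in wt/wt library 1, low genes such as *Itgae*, at 26 counts there, rest on few counts. Among the 10 genes the SE was largest for *Itga1* (0.39) and next for *Itgae* (0.35).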
